A study of Mus musculus with 18 samples.

Results

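The genes described here are those that encode the chains of collagens and laminins. They were taken by symbol from the protein-coding genes of the deposited table: every name made of Col, a number, a and a number, or of Lama, Lamb or Lamc and a digit. That gave 55 of 22303 genes, of which 44 encode collagen chains and 11 encode laminin chains. RNA abundance was measured in 18 libraries from mouse clonal lines derived from primary neural stem cells and grown as oligodendrocyte progenitor cells (OPCs), which divide and can mature into the oligodendrocytes that make myelin. The series asks how THAP1, a zinc-finger transcription factor, affects oligodendrocyte development. Of the 6 lines, 3 were controls and 3 were Thap1 null, and each was sampled once at 3 stages, so each of the 6 groups of genotype and stage held 3 libraries, 1 per clone. Values of single clones are given below in a fixed order, which is D7, D3, E8 for control and 3F, D6, 7F for null. The OPC stage, day 0, was grown in OPC growth medium with PDGF-AA. The DIV2 and DIV4 stages, days 2 and 4 in vitro, were kept in oligodendrocyte differentiation medium with the thyroid hormone T3 at 40 µg/ml. The labels do not state how the null clones were made. Each line is 1 clone, so a difference between genotypes is measured over 3 clones of each.

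Most collagens are secreted proteins in which 3 chains wind into a triple helix. Fibrillar collagens (types I, II, III, V, XI, XXIV and XXVII) form fibrils, FACIT collagens (types IX, XII, XIV, XVI, XIX, XX, XXI and XXII) attach to fibrils, and type IV collagen forms the network of basement membranes together with laminins, each made of an alpha, a beta and a gamma chain. In the brain, basement membranes lie mainly around blood vessels and at the surface, and laminins and collagens are ligands for integrins and other receptors on oligodendrocyte lineage cells. Types II, IX and XI are best known as the collagens of cartilage fibrils.

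The values are TPM, the share of each transcript in a library after correction for its length. Protein-coding transcripts were summed by gene, and each library was divided by 1 factor, the median ratio of its genes to their geometric mean over all libraries. The result is called rescaled TPM. This step matters most for the control OPC libraries. Their factors were 0.126 to 0.322, against 0.722 to 2.03 in the other 15 libraries, and coding transcripts held 5.05% to 9.0% of their TPM, against 19.1% to 38.8% elsewhere. Every comparison that uses those 3 libraries therefore leans on the rescaling. Sequencing depth is unknown. Thap1 was 4.03 ± 0.595 rescaled TPM in control OPCs and 0.620 ± 0.148 in null OPCs (SD, n = 3), and it was called lower in null at all 3 stages. Markers of OPCs were present as labelled: 10 of 11 reached 1 rescaled TPM in some OPC library of each genotype. The summed oligodendrocyte markers ran from 115 to 676 at the OPC stage and from 1983 to 12600 at the later stages. The RNA is from whole cultures, in which fewer cells of a type and less RNA per cell cannot be told apart.

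Of the 55 genes, 14 had a mean of at least 1 rescaled TPM over the 18 libraries and were tested: 12 collagen chains and 2 laminin chains. The order by mean level was Col11a1 at 93.1, Col16a1 at 88.3, Col20a1 at 75.5, Col9a1 at 17.8, Col9a3 at 16, Col11a2 at 7.80, Lamc1 at 6.91, Col18a1 at 4.88, Lama4 at 3.99, Col4a1 at 2.85, Col4a5 at 2.33, Col9a2 at 1.89, Col6a1 at 1.24 and Col4a3 at 1.08. Col5a3, at 0.985, was just outside. Col11a1, Col16a1 and Col20a1 together held 68.1% to 88.4% of the summed level of all 55 genes in every library. The sum itself ran from 166 to 197 at the OPC stage, 357 to 456 at DIV2 and 233 to 543 at DIV4. Of the 41 genes not tested, 11 reached 1 in at least 1 library: Col5a3, Col19a1, Lama5, Col4a2, Col23a1, Lama1, Col2a1, Col27a1, Lamb1, Col6a2 and Col1a1. The other 30 did not in any. Among these, Lamb2, Col5a1 and Col4a6 came closest, with highest values of 0.991, 0.922 and 0.817, and Col25a1, Col12a1, Col22a1, Col7a1, Col13a1, Col10a1, Col17a1 and Col14a1 peaked between 0.101 and 0.477. A further 18 (Col1a2, Col3a1, Col4a4, Col5a2, Col6a3, Col6a4, Col6a5, Col6a6, Col8a1, Col8a2, Col15a1, Col24a1, Col26a1, Col28a1, Lama2, Lama3, Lamb3 and Lamc3) peaked between 0.00908 and 0.0798. For Col26a1 that holds for its coding transcripts only. Its transcript models that are not protein-coding averaged 2.23 in control OPCs and 0.849 to 1.49 in the other groups. Some chains of types I, III and VI were near the bottom: over the 18 libraries Col1a2 peaked at 0.0626, Col3a1 at 0.0123 and Col6a3 at 0.0159. Other chains of types I and VI were higher, with Col1a1 peaking at 1.04, Col6a2 at 1.26 and Col6a1 at 6.12. The laminin chain Lama2 peaked at 0.0798. Markers of vascular and meningeal cells were mixed. On the fibroblast list Dcn, Lum and Pdgfrb peaked at 0.139, 0.0679 and 0.00991. On the same list S100a4, Fbln1, Prrx1, Postn and Thy1 peaked at 57.4, 6.04, 2.39, 1.68 and 1.37. The endothelial markers Cldn5 and Cdh5 peaked at 0 and 0.0112, and Vwf and Kdr at 1.77 and 1.47. The pericyte marker Notch3 peaked at 1.47. Across the whole fibroblast list, 5 of 12 markers reached 1 in some library and the summed level ran from 5.26 to 60.5. On the pericyte list 1 of 8 markers reached 1, with sums of 0.0469 to 2.00, and on the endothelial list 2 of 10 did, with sums of 0.484 to 2.75.

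**Figure D1:**
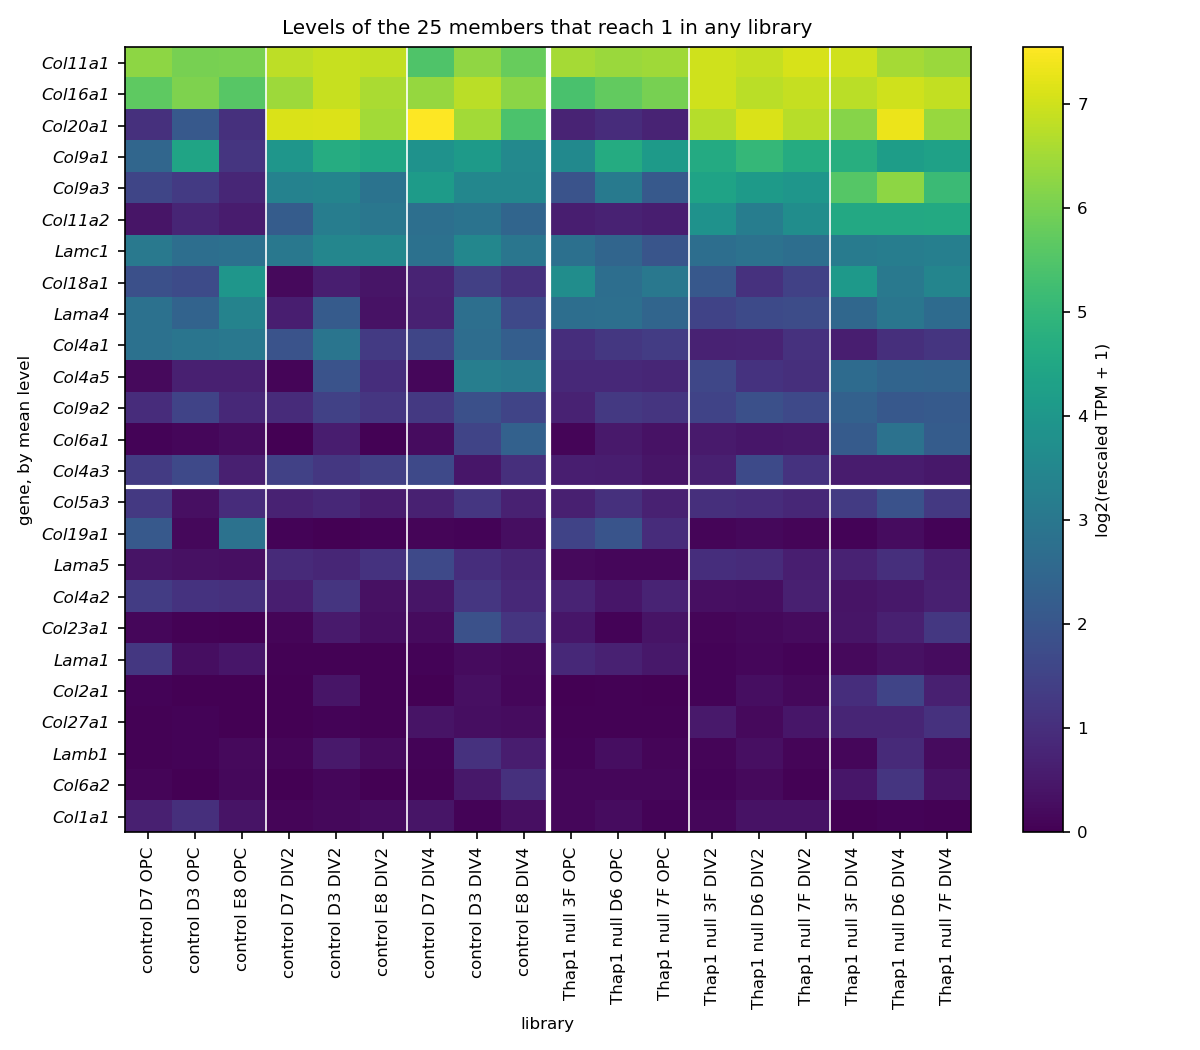
Levels of the 25 collagen and laminin genes that reach 1 rescaled TPM in any library, as log2(rescaled TPM + 1), with genes in rows by mean level and the 18 libraries in columns by genotype, stage and clone. The white horizontal line parts the 14 tested genes from the 11 below the mean of 1, and Col20a1 is dark in all 6 OPC libraries and bright in all 12 later ones.

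Promoter sequences are shown for 4 genes that the results turn on: Col11a2, Col18a1 and Col4a1, which differed between the genotypes, and Col20a1, which changed most with stage. Each is a window of 300 bases that ends shortly after a RefSeq start, written 5′ to 3′ on the gene's strand (RefSeq, GRCm38.p6). Capitals mark matches on either strand to TNNNGGCA, letters taken from the recognition sequence described for the THAP1 protein.
Col11a2, chr17:34038888-34039187, plus strand: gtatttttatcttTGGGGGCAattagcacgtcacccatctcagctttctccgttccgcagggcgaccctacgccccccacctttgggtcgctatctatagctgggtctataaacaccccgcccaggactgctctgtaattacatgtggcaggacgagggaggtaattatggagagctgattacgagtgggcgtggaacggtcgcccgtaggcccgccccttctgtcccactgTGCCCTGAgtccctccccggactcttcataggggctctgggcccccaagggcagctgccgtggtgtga
Col18a1, chr10:77166481-77166780, minus strand: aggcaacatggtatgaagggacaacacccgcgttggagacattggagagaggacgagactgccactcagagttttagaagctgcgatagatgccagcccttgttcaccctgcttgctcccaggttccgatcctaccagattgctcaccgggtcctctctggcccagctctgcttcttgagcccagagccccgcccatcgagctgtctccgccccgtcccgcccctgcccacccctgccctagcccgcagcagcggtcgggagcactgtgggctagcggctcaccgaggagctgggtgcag
Col4a1, chr8:11312777-11313076, minus strand: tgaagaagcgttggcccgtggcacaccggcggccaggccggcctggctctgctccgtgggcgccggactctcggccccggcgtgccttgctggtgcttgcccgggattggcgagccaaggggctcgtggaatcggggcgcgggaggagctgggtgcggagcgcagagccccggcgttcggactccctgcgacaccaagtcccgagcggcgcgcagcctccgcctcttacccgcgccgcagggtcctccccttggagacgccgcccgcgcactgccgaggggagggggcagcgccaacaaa
Col20a1, chr2:180986285-180986584, plus strand: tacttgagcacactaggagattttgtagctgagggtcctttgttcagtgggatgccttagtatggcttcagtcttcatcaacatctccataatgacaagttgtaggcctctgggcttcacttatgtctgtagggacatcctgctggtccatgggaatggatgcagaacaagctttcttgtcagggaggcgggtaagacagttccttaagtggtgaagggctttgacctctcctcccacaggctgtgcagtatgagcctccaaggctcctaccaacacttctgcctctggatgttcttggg
Col11a2 held 2 matches and the other 3 windows none. The windows are not alike in place. That of Col11a2 ends upstream of its main coding models measured here, which start at bases 34039437 and 34039472. The other 3 span the start of the main model measured. A window at another Col18a1 start, chr10:77113656-77113955, held 1. These letters are common: 13784 of 32851 mouse promoter windows of the same length, 42.0%, hold a match. Of the 44 windows of collagen and laminin genes (40 genes), 20 did, and of the 12 windows of tested genes (10 genes), 6 did. The letters GCCAT (the core of the YY1 site) were in 40.5% of all windows and 7 of the 44, and the letters ACAAAG (a SOX-type site) in 18.7% and 5 of the 44, both counted on either strand. A match is a description of letters only. Col4a1 and Col4a2 start 21 bases apart on opposite strands in the annotation.

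**Figure D2:**
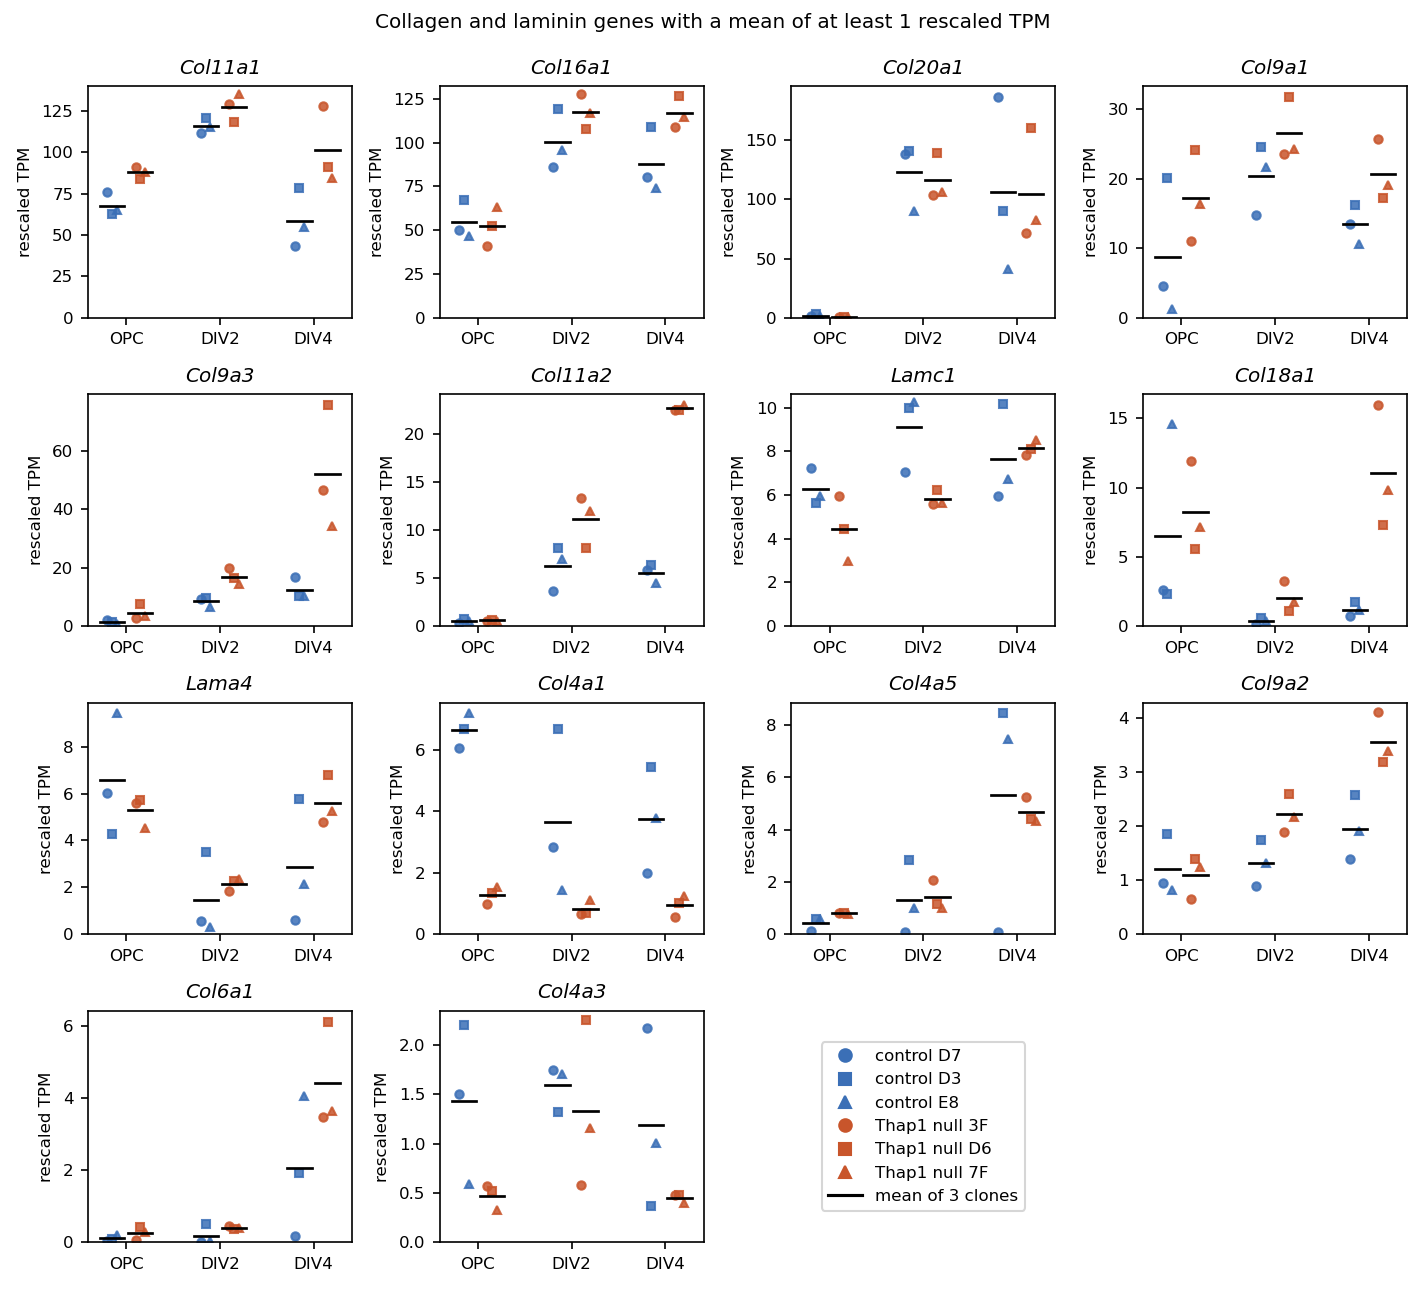
Level of each of the 14 tested genes in every library, in rescaled TPM on linear axes from 0, by stage (x axis), genotype (colour) and clone (symbol), with a black bar at the mean of 3 clones. Col11a2 at DIV4 sits between 22.5 and 23.0 in the null clones and between 4.52 and 6.31 in the control clones, and Col4a1 is higher in every control clone than in every null clone at each stage, which on deposited TPM did not hold for the OPC stage.

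Differences between genotypes were tested with limma on log2(rescaled TPM + 1), with p-values adjusted by the Benjamini-Hochberg method over all 10408 genes tested, and a gene was called at an adjusted p under 0.05. All changes below are differences on that scale, which understates changes of low genes. At DIV4, 5 of the 14 genes were called between null and control. Col11a1, Col11a2, Col9a3 and Col18a1 were higher in null and Col4a1 was lower. Over all genes tested 5.50% were called: higher in 3.15% and lower in 2.34%. For the 14 genes the median change was 0.62, beside -0.01 over all genes tested. Beside these DIV4 calls, the mean level of 12 oligodendrocyte markers at DIV4, as log2(rescaled TPM + 1), was 5.63 to 7.78 in control and 4.77 to 5.55 in null, and its part in them was not tested. At the OPC stage 2 of the 14 were called, Col9a3 higher and Col4a1 lower, where 11.8% of all genes were (5.91% higher, 5.94% lower). The median of the 14 was then 0.00, beside 0.04. At DIV2 limma called 0 of the 14 and 3.19% of all genes (1.93% higher, 1.26% lower), and 6 of the 14 were under 0.05 before adjustment. Among all genes called, 49.9% at the OPC stage, 60.5% at DIV2 and 57.3% at DIV4 were higher in null, and on deposited TPM, without the rescaling, those shares were 99.7%, 43.0% and 26.7%. On that scale the median change over all genes moved to 1.51, -0.16 and -0.15, and that of the 14 to 0.91, 0.19 and 0.50. The 3 genotype comparisons use different libraries of the same 6 clones.

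**Figure D3:**
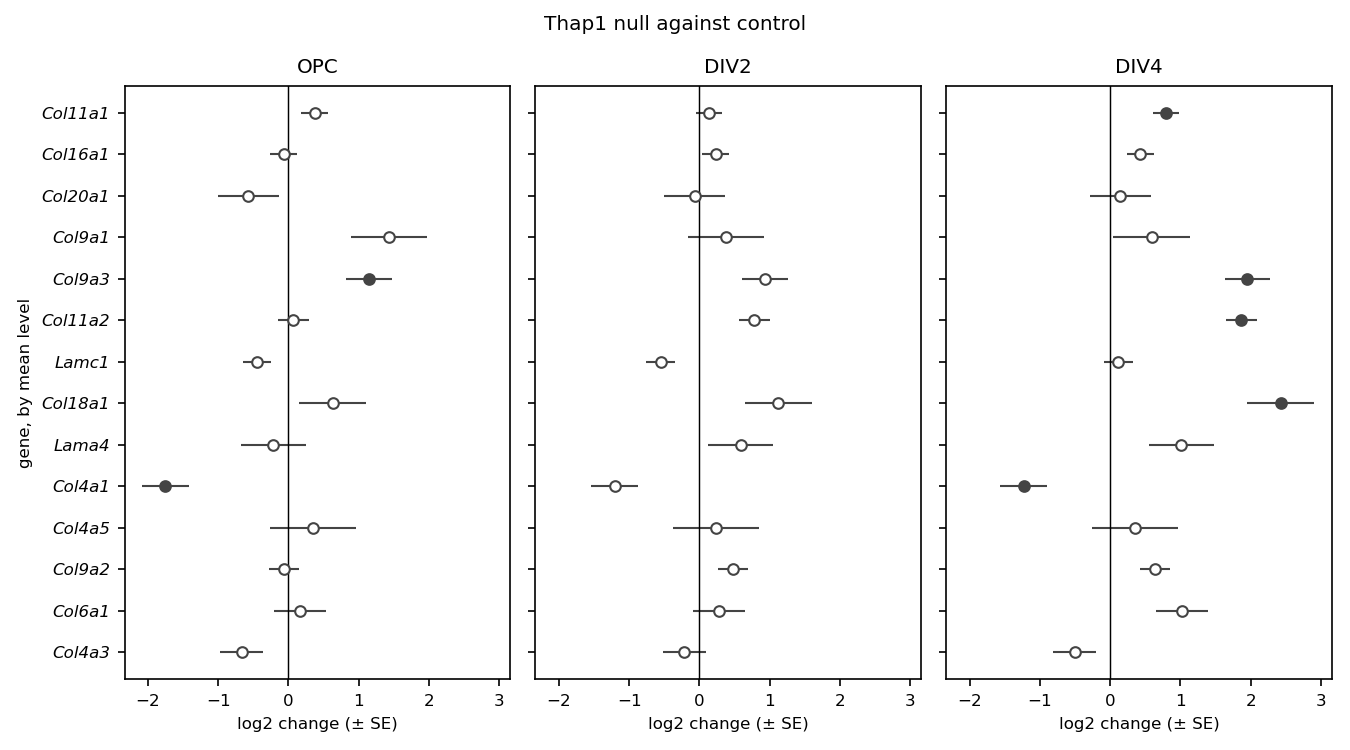
Log2 change of each tested gene, Thap1 null minus control, at the 3 stages (panels), with bars of 1 standard error from limma and filled points for genes called at an adjusted p under 0.05. Col4a1 lies left of 0 in every panel, but at the OPC stage its change is only -0.17 on deposited TPM; Col9a3 lies right of 0 in every panel, and Col18a1, at 2.43, is the farthest right at DIV4.

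The fibrillar chains come first. Type XI collagen is a minor fibrillar collagen that sits in the core of fibrils, and Col11a1 and Col11a2 encode its alpha 1 and alpha 2 chains. Of the 11 fibrillar chains, these 2 passed the level for testing and both were called higher in null at DIV4. Col11a2 (chr17:34039437-34066685) read 0.344, 0.718 and 0.475 rescaled TPM in the control clones and 0.547, 0.642 and 0.554 in the null clones as OPCs. At DIV2 the control clones, in that order, were at 3.60, 8.12 and 7.03 and the null clones at 13.4, 8.12 and 12. By DIV4 the control clones read 5.83, 6.31 and 4.52 and the null clones 22.5, 22.5 and 23.0. The groups overlapped as OPCs and at DIV2, where null D6 matched control D3, and were far apart at DIV4, with the null clones within a narrow band. The DIV4 difference was 1.86 ± 0.22 (SE), with a limma adjusted p of 0.000178, or 4.09-fold between means. From OPC to DIV2 Col11a2 rose by 2.21 ± 0.22 in control and 2.92 ± 0.22 in null. By DIV4 the change from OPC was 2.11 ± 0.22 in control and 3.91 ± 0.22 in null. The difference between those 2 changes was itself tested: it was 1.79 ± 0.31 (limma adjusted p 0.0132), and Col11a2 was the only tested gene of the 14 called in that interaction, in which 2.91% of all genes were called (1.65% higher, 1.26% lower). The difference stayed called without any 1 of the 12 libraries it rests on, between 1.68 and 1.88, and was 1.28 on deposited TPM, where the median over all genes was -1.65.

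Col11a1 (chr3:114030540-114220718) had the highest mean level of the 55 genes. As OPCs the control clones read 75.6, 62.7 and 64.8 and the null clones read 91.3, 84.0 and 88.0. At DIV2 the values were 112, 121 and 115 in control and 129, 118 and 135 in null. At DIV4 they were 43.0, 78.1 and 54.5 in control and 128, 90.8 and 84.2 in null. Every null clone was above every control clone as OPCs and at DIV4, while at DIV2 the genotypes overlapped. On deposited TPM they overlapped at DIV4 too, with control D3 at 156 and null from 118 to 170. At DIV4 null exceeded control by 0.80 ± 0.19 (limma adjusted p 0.0252). The call was lost without control D7, control E8 or null 3F at DIV4, with adjusted p from 0.0668 to 0.134, and on deposited TPM, with a change of 0.64 and an adjusted p of 0.641. From DIV2 to DIV4 Col11a1 fell by 1.01 ± 0.19 in control (limma adjusted p 0.0425), a comparison added after the data were seen that does not use the OPC libraries. That call was lost without any one of the control DIV2 libraries or control E8 at DIV4, with adjusted p of 0.0831 to 0.187. It was also lost on deposited TPM (-0.98, adjusted p 0.762), with quantile normalization (0.139) and with no filter (0.0627). In null the change from DIV2 to DIV4 was -0.36 ± 0.19, and the difference between the genotypes' changes, 0.66 ± 0.27, was not called (adjusted p 0.904).

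Among the other fibrillar chains, Col2a1 and Col27a1 stayed below a mean of 1. Col2a1 encodes the main fibrillar collagen of cartilage. At DIV4 it read 0, 0.233 and 0.0992 in the control clones, and 0.965, 1.93 and 0.594 in the null clones. Col27a1, another cartilage fibril collagen, read 0.313, 0.206 and 0.187 in control and 0.730, 0.723 and 1.11 in null at that stage. For both genes every null clone was above every control clone at DIV4, at levels near or below 1. In a fit without the filter on level, both were called higher in null at DIV4, Col2a1 by 0.92 ± 0.17 (limma adjusted p 0.00958) and Col27a1 by 0.58 ± 0.08 (adjusted p 0.00219). They were singled out because of those calls. In that fit 10 of the 41 genes below the level for testing were called in some comparison. The share over all genes in that fit is not given here. It also called Col28a1, which peaked at 0.0426, higher in null OPCs by 0.035 ± 0.009, so standard errors near the floor can be very small. The Col27a1 change from OPC to DIV4 also differed between the genotypes in that fit, by 0.58 ± 0.12 (adjusted p 0.0310). Col1a1, the main chain of type I collagen, was 0.592, 1.04 and 0.329 in control OPCs and 0.0948, 0.182 and 0.0438 in null OPCs. It was lower in every null clone than in every control clone, but on deposited TPM the groups overlapped. Col5a3, the highest gene under the level for testing, read 0.628, 1.31 and 0.607 in control and 1.49, 2.72 and 1.40 in null at DIV4.

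Of the 10 genes listed as FACIT chains, 9 were in the table and 5 were tested. Type IX collagen is built of alpha 1, alpha 2 and alpha 3 chains from Col9a1, Col9a2 and Col9a3, and binds the surface of fibrils that contain types II and XI. Col9a3 (chr2:180597790-180622189) read 2.00, 1.43 and 0.759 in the control clones and 2.78, 7.54 and 3.34 in the null clones as OPCs. It read 9.28, 9.54 and 6.39 in control and 19.8, 16.5 and 14.5 in null at DIV2. At DIV4 the values were 16.7, 10.2 and 10.2 in control and 46.5, 75.8 and 34.5 in null. The lowest null clone was above the highest control clone at all 3 stages. The differences were 1.15 ± 0.33 as OPCs (limma adjusted p 0.0336), 0.94 ± 0.33 at DIV2 (adjusted p 0.149) and 1.95 ± 0.33 at DIV4 (adjusted p 0.00300). At DIV4 the call was kept in every alternative tried. The OPC call was lost without control E8, null D6 or null 7F (adjusted p 0.0658 to 0.131), with no filter (0.0585) and with transcripts of all biotypes (0.135). Both genotypes rose from OPC to DIV4, by 2.48 ± 0.33 in control and 3.28 ± 0.33 in null, and the difference between those changes, 0.80 ± 0.46, was not called (adjusted p 0.350). Exons of Col9a3 overlap the opposite-strand gene Tcfl5, and whether the quantification used strand is not given in the sources used here.

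Col9a1 (chr1:24177610-24252684) was close to Col9a3 in overall mean, with wider spread among control OPCs. In that stage the control clones were at 4.61, 20.2 and 1.25 and the null clones at 11.0, 24.2 and 16.4. At DIV2 control was at 14.8, 24.6 and 21.7 and null at 23.6, 31.8 and 24.3. At DIV4 control was at 13.4, 16.2 and 10.6 and null at 25.8, 17.3 and 19.1. The groups overlapped as OPCs and at DIV2 but not at DIV4, though on deposited TPM control D3 at DIV4 was above null D6 and 7F. No genotype difference was called, with limma adjusted p of 0.0941, 0.801 and 0.572 at the 3 stages. Control D3 stood apart from D7 and E8 as an OPC. In the same library the mean level of cell-cycle markers, as log2(rescaled TPM + 1), was 1.98, against 5.03 to 5.26 in the other control clones and 4.87 to 5.12 in null; all 14 markers reached 1 in some control OPC library, and their summed level ran from 65.0 to 683 in control and from 571 to 662 in null. The part of that difference in the Col9a1 values was not tested. Col9a1 has 2 coding transcripts, which start at bases 24177610 and 24195187 of chromosome 1. The longer one, from the upstream start, held 15.1 ± 5.96 rescaled TPM in null OPCs and 4.94 ± 6.19 in control OPCs, and the shorter held 2.08 ± 0.694 and 3.73 ± 3.92 (SD, n = 3). At DIV2 the shorter had the higher mean in both genotypes. It was 13.1 ± 5.20 beside 7.27 ± 8.06 in control and 15.3 ± 1.01 beside 11.3 ± 5.27 in null. At DIV4 the shorter was the higher in control, at 7.99 beside 5.45, and the longer in null, at 13.1 beside 7.64. Col9a2 was lower, with control at 1.39, 2.56 and 1.90 and null at 4.11, 3.19 and 3.38 at DIV4, all null clones above all control clones. On deposited TPM control D3 was above null D6 and 7F at that stage. The Col9a2 difference at DIV4, 0.64 ± 0.21, was not called (limma adjusted p 0.0919), while the rise from OPC to DIV4 in null was (1.14 ± 0.21, adjusted p 0.000710).

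Col20a1 (chr2:180986535-181018363), a FACIT chain, went from near the floor to among the highest levels of the 55 genes. The OPC values were 1.08, 3.28 and 1.07 in the control clones and 0.698, 0.958 and 0.699 in the null clones. At DIV2 they were 138, 141 and 90.1 in control and 103, 139 and 107 in null. At DIV4 they were 187, 89.9 and 41.3 in control and 71.4, 161 and 82.5 in null. All 6 OPC libraries were far below every later library, and the genotypes overlapped at DIV2 and DIV4. The rise to DIV2 was 5.52 ± 0.44 in control (limma adjusted p 1.06e-06) and 6.03 ± 0.44 in null (adjusted p 8.05e-07). Null minus control was -0.57 ± 0.44, -0.07 ± 0.44 and 0.15 ± 0.44 at the 3 stages, with adjusted p of 0.412, 0.966 and 0.886. The control clones at DIV4 ran from 41.3 to 187. The highest, D7, also had the highest mean level of oligodendrocyte markers, 7.78, beside 5.63 in both D3 and E8, and the part of that difference in Col20a1 was not tested.

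Col16a1 (chr4:130047840-130099283), a FACIT chain of broad distribution, was high throughout. It read 50.2, 67.2 and 46.9 in the control clones and 41.2, 52.6 and 63.4 in the null clones as OPCs. It was at 86.4, 119 and 95.6 in control and 128, 108 and 117 in null at DIV2, and at 80.3, 109 and 74.1 in control and 109, 127 and 115 in null at DIV4. All 12 later libraries were above all 6 OPC libraries. Col16a1 rose from OPC to DIV2 by 0.87 ± 0.19 in control and 1.17 ± 0.19 in null, and to DIV4 by 0.67 ± 0.19 and 1.16 ± 0.19, all 4 called. The control DIV4 call was lost without control D7 or E8 as OPC or control D3 at DIV4 (adjusted p 0.0513 to 0.0654). No genotype difference was called; the largest was 0.43 ± 0.19 at DIV4 (adjusted p 0.207). A 452-base model carried 40.2% of its coding TPM, so the level of Col16a1 relative to other genes depends on that model.

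Among the FACIT chains not tested, Col19a1 read 3.28, 0.121 and 6.14 in control and 1.89, 2.89 and 0.943 in null as OPCs and at most 0.208 in any later library. In the fit without the filter the control change from OPC to DIV2 was -1.64 ± 0.46 (limma adjusted p 0.0217), and it was named because of that call. Of the 4 chains listed as transmembrane collagens, Col23a1 alone reached 1, at 2.65 and 1.24 in control D3 and E8 and 1.32 in null 7F at DIV4.

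Col18a1 (chr10:77052178-77166548) encodes the chain of type XVIII collagen, a basement-membrane collagen that carries heparan sulfate and whose end fragment is endostatin. As OPCs the control clones read 2.60, 2.32 and 14.6 and the null clones read 11.9, 5.60 and 7.12. At DIV2 control read 0.134, 0.554 and 0.332 and null 3.22, 1.09 and 1.76. At DIV4 control read 0.693, 1.72 and 1.12 and null 16, 7.31 and 9.81. The genotypes overlapped as OPCs through control E8, the library with the smallest factor, where the deposited value was 1.84. They did not overlap at DIV2 or DIV4, and the DIV4 means differed 9.38-fold. On the log2 scale the DIV4 difference was 2.43 ± 0.48 (limma adjusted p 0.00886), the largest of the 14, and it was 2.45 on deposited TPM. Without null 3F it was 2.15 with an adjusted p of 0.0550. The main coding transcript, with 78.5% of the coding TPM of Col18a1, carried the difference: 9.83 ± 3.89 in null and 0.694 ± 0.387 in control at DIV4 (SD, n = 3). From OPC to DIV2 Col18a1 fell in both genotypes, with changes of -2.10 ± 0.48 in control and -1.61 ± 0.48 in null. The control call was lost on deposited TPM, where the change was -0.45. The null call was lost without null 3F as OPC or null D6 at DIV2, with adjusted p of 0.0771 and 0.0700. At DIV4 the control change from OPC was -1.42 ± 0.48 (adjusted p 0.0300), which was 0.48 on deposited TPM, and the call was lost without control E8 as OPC (-0.70) or without control D7 or E8 at DIV4 (adjusted p 0.0900 and 0.0598). Null at DIV4 was 0.38 ± 0.48 from its OPC level (adjusted p 0.563). The difference between those changes, 1.80 ± 0.68, was not called (adjusted p 0.147). From DIV2 to DIV4 null rose by 1.99 ± 0.48 (adjusted p 0.0393), a call lost when any 1 of the 6 null libraries at those stages was left out.

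Col4a1 (chr8:11198423-11312826) encodes the alpha 1 chain of the most widespread type IV collagen, which pairs with the alpha 2 chain from Col4a2. Of the 9 network-forming chains listed, 3 were tested: Col4a1, Col4a3 and Col4a5. Col4a1 was the one called in a genotype comparison, and the direction was opposite to that of the other genes called at DIV4. The control clones read 6.06, 6.68 and 7.21 as OPCs, 2.84, 6.68 and 1.45 at DIV2 and 1.99, 5.43 and 3.79 at DIV4. The null clones read 0.971, 1.33 and 1.53 as OPCs, 0.655, 0.688 and 1.11 at DIV2 and 0.559, 1.03 and 1.24 at DIV4. At each stage every control clone was above every null clone on the rescaled values. The differences were -1.75 ± 0.33 (limma adjusted p 0.00458), -1.21 ± 0.33 (adjusted p 0.0633) and -1.23 ± 0.33 (adjusted p 0.0427) at OPC, DIV2 and DIV4. The OPC value depends on the rescaling: deposited TPM was 1.75, 2.15 and 0.909 in control and 1.31, 0.963 and 1.55 in null, and the change there was -0.17 (adjusted p 0.717), beside a median of 1.51 over all genes. The DIV4 change, which uses no OPC library, was -1.54 on deposited TPM (adjusted p 0.0765), and it also lost its call with no filter (0.0759) and with all biotypes (0.0666). Leaving out control D3, control E8 or any 1 null clone at DIV4 ended that call too, with changes of -1.35 to -0.98 and adjusted p of 0.0836 to 0.179.

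Col4a2, below the mean of 1, read 1.52, 1.16 and 1.05 in the control clones and 0.670, 0.362 and 0.674 in the null clones as OPCs. Every control clone was higher than every null clone at that stage, which on deposited TPM did not hold, and at DIV2 and DIV4 the genotypes overlapped. No Col4a2 difference was called in the fit without the filter. Col4a3, an alpha 3 chain of specialised basement membranes, read 2.17, 0.368 and 1.01 in control and 0.480, 0.481 and 0.394 in null at DIV4, with overlap. A 627-base model carried 68.3% of its coding TPM. Col4a5, the alpha 5 chain, varied widely between the control clones. It read 0.137, 0.588 and 0.571 in the control clones as OPCs, 0.0666, 2.83 and 0.996 at DIV2 and 0.0904, 8.44 and 7.47 at DIV4. In the null clones it went from 0.821, 0.828 and 0.761 to 5.26, 4.42 and 4.35 at DIV4. Col4a5 met the mean of at least 1 largely through DIV4, so the filter itself favoured a rise to that stage. The rise from OPC to DIV4 was 1.65 ± 0.61 in control (adjusted p 0.0452) and 1.65 ± 0.61 in null (adjusted p 0.0431). Both calls were lost when single libraries were left out: leaving out any 1 control clone as OPC, or control D3 or E8 at DIV4, ended the first (adjusted p 0.0580 to 0.191), and leaving out any 1 of the 6 null libraries ended the second (0.0837 to 0.105).

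Col6a1 encodes a chain of type VI collagen, which forms beaded filaments. It was at most 0.511 in all 12 OPC and DIV2 libraries. At DIV4 it read 0.183, 1.91 and 4.07 in the control clones and 3.48, 6.12 and 3.63 in the null clones. Control D7 was far below the other 5 clones at DIV4. Col6a1 met the mean of at least 1 only through its DIV4 libraries, so the filter itself favoured a rise to DIV4. From OPC to DIV4 Col6a1 rose by 1.22 ± 0.37 in control (limma adjusted p 0.0189) and 2.08 ± 0.37 in null (adjusted p 0.000510). The control call was lost without control D7 as OPC, or control D3 or E8 at DIV4 (adjusted p 0.0542 to 0.0904). The DIV4 difference between genotypes was 1.03 ± 0.37 and was not called (adjusted p 0.120). Its partner chain Col6a2 read 0.0352, 0.406 and 1.06 in control and 0.376, 1.26 and 0.300 in null at DIV4, and Col6a3 was near 0 in every library.

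The control clones at DIV4 also differed in cell-type markers. The mean level of 12 astrocyte markers, as log2(rescaled TPM + 1), was 1.40 in D7, 3.53 in D3 and 4.07 in E8, and 2.90 to 3.18 in the null clones. Of those markers 10 reached 1 in some control library and 8 in some null library at DIV4, and their summed level ran from 106 to 638 in control and from 461 to 515 in null, while Gja1 and Gjb6 peaked at 0.101 and 0.0422 over all libraries. The oligodendrocyte marker mean was 7.78 in D7, 5.63 in both D3 and E8, and 4.77 to 5.55 in null, with summed levels of 2287 to 12600 in control and 1983 to 2943 in null. Col4a5 and Col6a1 were low where the astrocyte markers were low, and Lamb2 and Col4a6 had the same order: at DIV4 Lamb2 read 0.0406, 0.981 and 0.991 and Col4a6 0.0300, 0.350 and 0.817 in D7, D3 and E8. In the null clones Lamb2 was 0.110 to 0.146 and Col4a6 0 to 0.225. The part of the culture's cell makeup in these values was not tested.

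**Figure D4:**
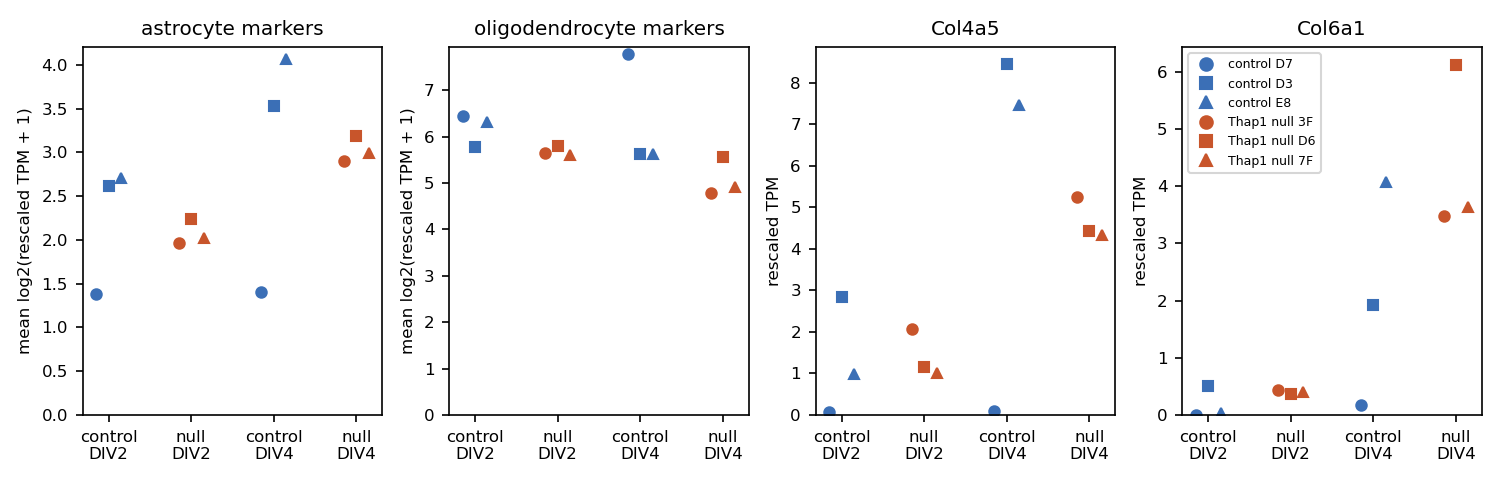
Mean level of 12 astrocyte and 12 oligodendrocyte markers, as log2(rescaled TPM + 1), and levels of Col4a5 and Col6a1 in rescaled TPM, in each DIV2 and DIV4 library by genotype (colour) and clone (symbol). At DIV4 control D7 is lowest for the astrocyte markers (1.40), Col4a5 (0.0904) and Col6a1 (0.183) and highest for the oligodendrocyte markers (7.78).

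Of the 11 laminin chains, 2 were tested and neither was called between genotypes. Lamc1 (chr1:153218922-153332786) encodes gamma 1, the gamma chain of most laminins. It read 7.23, 5.64 and 5.93 in the control clones and 5.94, 4.46 and 2.96 in the null clones as OPCs. At DIV2 it read 7.08, 9.98 and 10.3 in control and 5.60, 6.25 and 5.65 in null, and at DIV4 5.98, 10.2 and 6.75 in control and 7.84, 8.13 and 8.54 in null. The DIV2 groups did not overlap, with a difference of -0.55 ± 0.20 that was not called (limma adjusted p 0.182). Lamc1 rose from OPC to DIV4 in null by 0.79 ± 0.20 (adjusted p 0.00677), beside 0.23 ± 0.20 in control (adjusted p 0.411), and the difference between the changes was not called (0.56 ± 0.29, adjusted p 0.298).

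Lama4 (chr10:38965515-39110188) encodes alpha 4, an alpha chain of vascular and peripheral nerve laminins. As OPCs it read 6.03, 4.28 and 9.43 in the control clones and 5.61, 5.74 and 4.55 in the null clones. At DIV2 it read 0.566, 3.52 and 0.301 in control and 1.85, 2.25 and 2.37 in null, and at DIV4 0.609, 5.78 and 2.15 in control and 4.77, 6.78 and 5.26 in null. All clones were lower at DIV2 than as OPCs on the rescaled values, which on deposited TPM did not hold for control D3, and control D3 stayed well above D7 and E8 at both later stages. The control change from OPC to DIV2 was -1.80 ± 0.46 (adjusted p 0.00659) on the rescaled values and 0.11 on deposited TPM. In null it was -0.99 ± 0.46 (adjusted p 0.112). Among the laminin chains not tested, Lama5, Lama1 and Lamb1 reached 1 in some library: Lama5 in control E8 at DIV2 (1.15), control D7 at DIV4 (2.19) and null D6 at DIV4 (1.05), Lama1 in control D7 as OPC (1.36) and Lamb1 in control D3 at DIV4 (1.10). In the fit without the filter Lama5, the alpha 5 chain of many adult basement membranes, rose from OPC to DIV4 by 0.80 ± 0.18 in control (limma adjusted p 0.00800) and 0.64 ± 0.18 in null (adjusted p 0.0223). It was named because of those calls. No beta chain reached a mean of 1.

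Stage changes were tested in the same fit. From OPC to DIV2, 9 of the 14 genes were called in control (6 higher, 3 lower), where 40.0% of all genes were called (21.3% higher, 18.7% lower). In null it was 7 (6 higher, 1 lower), where 33.3% of all genes were (17.7% higher, 15.6% lower). From OPC to DIV4, 7 were called in control (6 higher, 1 lower), where 36.8% of all genes were (19.1% higher, 17.7% lower). Without control D3 at DIV4 that split was 3 higher and 4 lower, and on deposited TPM it was 12 and 0 (10 and 0 at DIV2). In null it was 8, all higher, where 38.4% of all genes were (19.7% higher, 18.7% lower). The higher calls at DIV4 include Col6a1 and Col4a5 in both genotypes, which passed the filter on level largely through DIV4. The counts and medians at DIV4 are partly set by that filter. The median change of the 14 was 0.49 in control and 0.57 in null at DIV2, and 0.55 and 0.96 at DIV4, beside 0.01 to 0.03 over all genes tested. Within each genotype the DIV2 and DIV4 comparisons share their OPC libraries. The chains higher in both genotypes at both stages were Col20a1, Col11a2, Col9a3 and Col16a1. Col11a1 was higher at DIV2 by 0.77 ± 0.19 in control and 0.53 ± 0.19 in null and differed from OPC by -0.24 and 0.18 at DIV4, neither called. The null call at DIV2 was lost without any 1 of the 6 null libraries. Col9a1 was called in control at DIV2 alone, with a change of 1.70 ± 0.54, and the call was lost without D7 or E8 as OPC, or D3 or E8 at DIV2 (adjusted p 0.0592 to 0.111). In null Col9a2 was called at DIV2, by 0.64 ± 0.21, and lost its call without 3F as OPC or D6 or 7F at DIV2 (0.0715 to 0.136). The genes called lower from OPC to DIV2 were Col18a1 in both genotypes and, in control, Lama4 and Col4a1, but in control Lama4 and Col4a1 changed sign on deposited TPM. Col4a1 fell by 0.87 ± 0.33 from OPC to DIV2 in control (limma adjusted p 0.0471); the change was 1.18 on deposited TPM, and the call was lost in 5 of the 6 single-library omissions, control D3 at DIV2 being the exception.

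**Figure D5:**
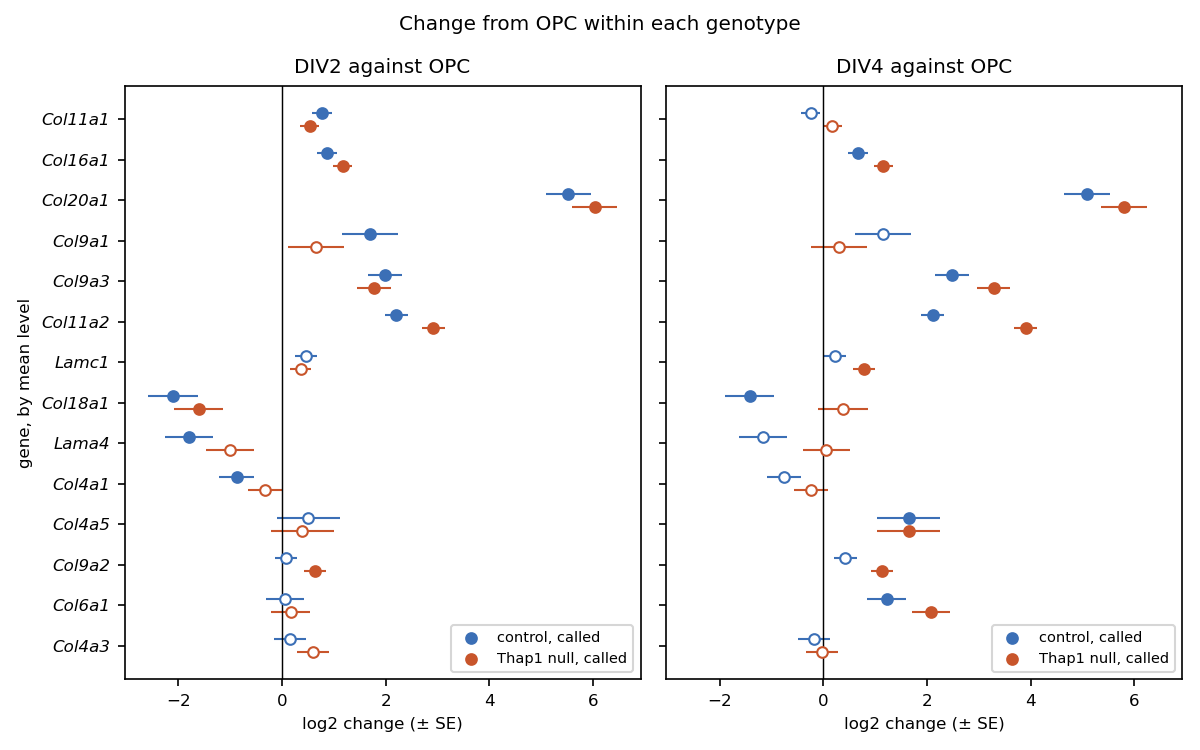
Log2 change from OPC to DIV2 and from OPC to DIV4 (panels) for each tested gene in control and Thap1 null clones (colours), with bars of 1 standard error from limma and filled points for genes called at an adjusted p under 0.05. Col20a1 is farthest right in all 4 series (5.08 to 6.03). The points left of 0 in control lean on the rescaling. On deposited TPM Lama4 (0.11) and Col4a1 (1.18) at DIV2 and Col18a1 (0.48) at DIV4 change sign there, while Col18a1 at DIV2 stays below 0 (-0.45) without a call.

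Of all genes called from OPC to DIV2, 53.2% were higher in control and 53.1% in null, and from OPC to DIV4, 52.0% and 51.3%. On deposited TPM those shares were 99.3%, 79.6%, 99.9% and 82.5%, and the median change over all genes was 2.01, 0.36, 2.05 and 0.42, in the same order. Between DIV2 and DIV4, a comparison added after the data were seen, 1 of the 14 genes was called in control, where 0.250% of all genes were (0.173% higher, 0.0769% lower). In null 4 were called, all higher, where 2.93% of all genes were (1.65% higher, 1.28% lower). These were Col18a1, Col9a3, Col11a2 and Col6a1, the last tested only because of its DIV4 level. Of all genes called between DIV2 and DIV4, 69.2% were higher in control (84.0% on deposited TPM, 53.1% with quantile normalization, 44.8% with all biotypes). In null 56.4% were (68.7% on deposited TPM). The null count dropped to between 0 and 2 when any 1 null library at DIV2 or DIV4 was left out. For a difference between the genotypes in that change limma called 0.00% of all genes; 4 of the 14 and 539 of all genes were under 0.05 before adjustment. For the change from OPC to DIV2, limma called 0 of the 14 and 0.279% of all genes (0.202% higher, 0.0769% lower), and 1 of the 14 was under 0.05 before adjustment. Of the genes called for a different change between genotypes, 72.4% at DIV2 and 56.8% at DIV4 had a more positive change in null, against 0.334% and 0.246% on deposited TPM; at DIV2 it was 46.8% with all biotypes.

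The proteins that fold, bind and remodel these chains were taken from 4 further lists. From OPC to DIV4, of 5 basement-membrane partners tested, 2 were called higher and 2 lower in control and 3 and 1 in null. Of 17 genes for folding and secretion it was 4 and 2 in control and 9 and 1 in null, of 12 receptors 3 and 2 in control and 2 and 0 in null, and of 8 genes for degradation 1 and 3 in control and 2 and 2 in null. Over all genes tested 19.1% were higher and 17.7% lower in control, and 19.7% and 18.7% in null. The lower calls in control stand beside the shift of 2.05 in the median of all genes on deposited TPM. Of 16 basement-membrane partners, 5 were tested, and 1 was higher and 1 lower in null at DIV2, 2 higher and 1 lower at DIV4, and 0 as OPCs. Over all genes tested 3.19% were called at DIV2, 5.50% at DIV4 and 11.8% as OPCs. Sparc, a secreted collagen-binding glycoprotein, read 0.925, 6.25 and 6.73 rescaled TPM in the control clones and 53.5, 29.9 and 50.0 in the null clones at DIV2. At DIV4 it read 2.22, 17.2 and 21.5 in control and 123, 119 and 132 in null. The null clones were far above the control clones at both stages, and control D7 was the lowest of all. The differences were 3.21 ± 0.74 at DIV2 (limma adjusted p 0.0261) and 3.52 ± 0.74 at DIV4 (adjusted p 0.0128). Smoc1, a Sparc-related basement-membrane protein, was higher in null at DIV4 by 1.49 ± 0.32. Agrn, a heparan sulfate proteoglycan that binds laminin, was lower in null, with differences of -1.01 ± 0.20 at DIV2 and -0.74 ± 0.20 at DIV4. With stage, Fbln1 fell from OPC to DIV4, with changes of -1.47 ± 0.38 in control and -2.23 ± 0.38 in null. Agrn rose by 1.08 ± 0.20 and 0.94 ± 0.20.

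Of 31 genes for collagen folding, modification and secretion, 17 were tested; 2 were higher and 1 lower in null at DIV2, 3 higher at DIV4 and 0 called as OPCs, beside 3.19%, 5.50% and 11.8% of all genes. Pcolce2, an enhancer of procollagen C-proteinase, was higher by 2.11 ± 0.29 at DIV2 and 1.33 ± 0.29 at DIV4. Leprel4, the table's name for P3h4, which acts in collagen modification in the endoplasmic reticulum, was higher by 1.20 ± 0.29 and 1.12 ± 0.29. Sec31a, a coat protein of the vesicles that leave the endoplasmic reticulum, was higher by 0.75 ± 0.15 at DIV4, and P4ha1, a prolyl hydroxylase subunit that stabilises the triple helix, was lower at DIV2, with a difference of -0.57 ± 0.14. With stage, Pcolce rose from OPC to DIV4 by 2.12 ± 0.27 in control and 2.75 ± 0.27 in null. Plod1, a lysyl hydroxylase, rose by 1.60 ± 0.22 and 2.08 ± 0.22, Leprel1 by 1.08 ± 0.30 and 1.38 ± 0.30, and P4ha1 by 0.80 ± 0.14 and 0.57 ± 0.14.

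Among 19 receptors for collagens and laminins, 12 were tested. Itgb1, the shared beta 1 chain of collagen and laminin integrins, was higher in null OPCs by 0.55 ± 0.14 (limma adjusted p 0.0193), and Gpr56, the table's name for Adgrg1, an adhesion receptor with collagen III as a ligand, was higher in null at DIV2 by 1.43 ± 0.36 (adjusted p 0.0433). These were the only receptors called between genotypes, beside 11.8% of all genes as OPCs, 3.19% at DIV2 and 5.50% at DIV4. Ddr1, a receptor tyrosine kinase for collagen, rose from OPC to DIV4 by 1.89 ± 0.25 in control and 1.64 ± 0.25 in null. Sdc3 fell from OPC to DIV2, with changes of -2.39 ± 0.41 in control and -1.58 ± 0.41 in null. At DIV4 it was called lower than in OPCs in control alone (-1.69 ± 0.41). Sdc1 and Gpr56 were also called lower at DIV2 in control, by -1.43 ± 0.34 and -1.52 ± 0.36. The control falls lean on the rescaling. Of 15 genes for matrix degradation, 8 were tested, and Mmp11, a secreted metalloproteinase, was called higher in null at DIV2, by 2.46 ± 0.49 (adjusted p 0.0104), with 0 others called at any stage between genotypes, beside the same shares of all genes. Mmp11 read 0.525, 0.390 and 2.23 in the control clones and 22.0, 3.18 and 10.9 in the null clones at DIV2. The null clones were all higher, with 3F far above D6. Timp2, an inhibitor of metalloproteinases, rose from OPC to DIV4 by 1.74 ± 0.37 in control and 2.78 ± 0.37 in null, and Mmp15, a membrane-bound metalloproteinase, fell from OPC to DIV2 in both genotypes, with changes of -2.87 ± 0.47 in control and -2.33 ± 0.47 in null.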

How the data were processed

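RNA from 18 cultures (total RNA, ribosomal RNA removed, stranded kit, per the labels' protocols) was quantified per transcript by the authors and deposited as 1 table of TPM. STAR, Picard and the mm10 genome appear in the submitters' processing notes. The quantifier and its annotation are not given in the sources used here. TPM keeps no sequencing depth, so the number of clones, 3 per group, sets the precision.

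From the deposited TPM, protein-coding transcripts were summed by gene name (22303 genes) and divided by median-of-ratios factors over the 12319 genes above 0 in every library. Genes with a mean of at least 1 (10408) were tested on log2(rescaled TPM + 1), a log2 scale computed here from the deposited values, with limma 3.58.1 in R 4.3.3: 6 group means, a mean-variance trend, and Benjamini-Hochberg adjustment over all genes tested, called under 0.05. p-values rest on the pooled spread of libraries within the 6 groups. The fit had no clone term, so libraries of the same clone at different stages were treated as independent. The procedure was tested on simulated data for null against control at DIV4 only. The simulated libraries were independent, with no clone effect, so that run does not cover the dependence between libraries of 1 clone. Coordinates are GRCm38 with GENCODE annotation.

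Values of single clones are given for the 8 genes with the highest mean and for every collagen or laminin gene called between genotypes or in an interaction, and stage changes for these and for the 5 largest rises and falls. From each partner list up to 4 genes called by genotype and some of the stage changes are named, not always the largest. The genes and lists were chosen with earlier results of these data known. Genes outside these rules were chosen after their values were seen. The values of 1 gene of low level are not reported here. Lists of cell-type markers (fibroblast, endothelial, pericyte, astrocyte, microglia, neuron, oligodendrocyte, OPC and cell cycle) were summed. Of these, microglial markers summed to 5.30 to 14.0 and neuronal ones to 67.0 to 139 rescaled TPM.

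Each clone was sampled at all 3 stages, so clones pair the stages by label. Residuals of the same clone at different stages correlated with a mean r of 0.285 (0.0260 to 0.653), and those of different clones with a mean r of -0.140. Centring on the mean of 3 clones ties the second value to the first, so it is no separate comparison. Alternatives were deposited TPM, quantile normalization, all biotypes, no filter, a filter at a mean of 5, 0.1 as the pseudocount, clone as a block, and leaving out each library. Dropping transcripts under 1000 bases, and the comparisons of DIV4 with DIV2, were added after seeing the data.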

Additional observations from a re-analysis of the deposited data

Results flagged for a closer look

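The change of Col11a2 from OPC to DIV4 differed between the genotypes: it was 1.79 larger in null on the log2 scale, by the interaction term in limma (adjusted p 0.0132), with 3 clones in each of the 4 groups.

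Transcript models of 3 of the genes that are not protein-coding, such as retained introns and processed transcripts, were left out of the values and fits above, apart from the alternative with all biotypes. These 3 genes were picked because, at DIV4, these models averaged at least 1 in null and every null clone was above every control clone. Separation in the other direction was not looked for, and the share over all genes was not counted. For Col9a3 these models read 14.3, 13.4 and 13.4 rescaled TPM in null, a mean of 13.7, and 1.77, 2.06 and 4.18 in control. For Col16a1 the null mean was 38.9, and control read 19.6, 29.5 and 18.7, but on deposited TPM the genotypes overlapped. For Col27a1 the null mean was 1.53, and control read 0.630, 0.585 and 0.496. For Col11a2, whose genotypes overlapped, they read 7.10, 4.53 and 1.70 in null and 2.71, 1.65 and 1.90 in control, and for Col11a1 the mean was 2.40 in null and 3.04 in control. None of these differences was tested.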

How the results depend on the processing

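Over the 12 comparisons the collagen and laminin genes gave 44 calls, of which 25 were kept whichever library was left out and 22 in every alternative run. On deposited TPM 3 changes turned sign: control DIV2 against OPC for Lama4 (0.11) and Col4a1 (1.18) and control DIV4 against OPC for Col18a1 (0.48). The counts that moved by over 1.5 times follow, members first and then all genes. Null against control gave, as OPCs, 7 members and 9303 genes on deposited TPM and 1 member each with all biotypes and with a mean of at least 5 (2 and 1233 in the fit reported). At DIV2 it gave 1 member with a pseudocount of 0.1, and 200 genes on deposited TPM and 175 with a mean of at least 5 (0 and 332). At DIV4 it gave 3 members each on deposited TPM and with a mean of at least 5, and 273 and 351 genes (5 and 572). Control DIV2 against OPC gave 9470 genes on deposited TPM (4162). Control DIV4 against OPC gave 12 members on deposited TPM, 12 with no filter and 4 with a mean of at least 5, and 9856 genes on deposited TPM (7 and 3834). Null DIV4 against OPC gave 5 members with a mean of at least 5 (8). Control DIV4 against DIV2 gave 0 members on deposited TPM, with quantile normalization and with no filter, and 16 genes with a pseudocount of 0.1 and 17 with a mean of at least 5 (1 and 26). Null DIV4 against DIV2 gave 1 member with a pseudocount of 0.1 and 2 with a mean of at least 5, and 67 genes on deposited TPM (4 and 305). The difference between genotypes in the change from DIV2 to DIV4 gave 3 genes with all biotypes and 11 with no filter (0). That from OPC to DIV2 gave 5 members and 8695 genes on deposited TPM, and 47 genes with all biotypes, 18 with a pseudocount of 0.1, 84 with no filter and 13 with a mean of at least 5 (0 and 29). That from OPC to DIV4 gave 4 members and 8524 genes on deposited TPM and 2 members with no filter (1 and 303). With a mean of at least 5, fewer genes were tested. Otherwise the cause was not tested.

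With clone as a replicate block, all 44 calls were kept and 2 were added for control DIV4 against OPC, Col4a1 (-0.76, adjusted p 0.0416) and Lama4 (-1.16, adjusted p 0.0447). The block gave 62 genes for control and 613 for null DIV4 against DIV2, 95 for the interaction at DIV2 and 580 for that at DIV4, and moved no other count by over 1.5 times. Leaving out 1 library at a time gave these ranges of members and of all genes called. Null against control: 1 to 3 and 471 to 2002 as OPCs (1 member without null D6 or 7F), 0 to 1 and 122 to 353 at DIV2 (1 without control D3, control E8 or null D6), 2 to 5 and 179 to 705 at DIV4 (2 without null 3F). Against OPC: control DIV2 7 to 9 and 3223 to 4870, control DIV4 4 to 9 and 2840 to 4636 (4 without control D7 or E8 as OPC or E8 at DIV4), null DIV2 4 to 6 and 2551 to 2894 (4 without 3F as OPC or D6 at DIV2), null DIV4 7 and 3177 to 3546. DIV4 against DIV2: control 0 to 3 and 3 to 823 (0 without any 1 DIV2 library or E8 at DIV4, 3 without D7 at DIV4), null 0 to 2 and 43 to 107. The interactions gave 0 and 0 to 19 from DIV2 to DIV4, 0 to 1 and 9 to 359 from OPC to DIV2 (1 without control D3 as OPC), and 1 to 2 and 32 to 967 from OPC to DIV4 (2 without control D3 as OPC). TPM holds no depth, so counting error at low levels is unknown.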

Other observations

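Acan encodes aggrecan, the large proteoglycan of cartilage, and was looked at after its values and those of the cartilage collagens were seen. At DIV4 it read 0.00768, 0.226 and 0.128 rescaled TPM in the control clones and 3.55, 2.99 and 1.55 in the null clones, means of 0.121 ± 0.109 and 2.70 ± 1.04 (SD, n = 3). The groups did not overlap. Acan was below the level for testing, and its result in the fit without the filter is not reported here.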
